A study of Mus musculus with 8 samples.

Results

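Chemokines and their receptors were followed in mouse cells at the hemogenic endothelium stage, with and without induction of Runx1. Genes were chosen by symbol, so that the set held the numbered CC and CXC ligands, the CC, CXC and XC receptors, the atypical receptors and Ccrl2. The reference annotation held 59 such symbols, and 54 of them had a probe on the array, out of 20145 genes named there. The other 5, Ccl21a, Ccl21b, Ccl21c, Ccl27b and Cxcl11, had no probe with a matching accession. A probe entered the test if all 3 replicates of either group showed it well above background, and 28 of the 54 genes had such a probe, among 14504 genes tested.

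Chemokines are small secreted proteins that direct the movement of cells along a gradient. They act through receptors with G proteins of the inhibitory class, while atypical receptors bind the same ligands without that signal and remove or transport them. In blood formation Cxcl12 and its receptor Cxcr4 are known for holding progenitors in their niche, and CC chemokines such as Ccl2 are known for calling monocytes to inflamed endothelium.

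The cells carried Runx1 under a Tet-on promoter on a C57BL/6 background, and this inducible gene was present in every sample. Embryonic stem cells had formed embryoid bodies for 3.25 days, and Flk-1+ cells were sorted, grown as blast cultures, sorted again and kept for 2 days as hemogenic endothelium with oncostatin, FGF and SCF. DOX+ cells received doxycycline overnight at 0.3 µl/ml, the unit of the labels, and DOX- cells received none. Each group had 3 biological replicates, and 1 further array per group was labelled a technical repeat and stayed out of the tests. A doxycycline control that lacks the inducible gene was not analysed here, and the differences below are those of doxycycline treatment.

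All values below are log2 processed signals relative to the 75th percentile of their own array, and changes are DOX+ minus DOX-. That percentile lay between 543 and 973 signal units on the DOX+ arrays and between 338 and 699 on the DOX- arrays. Spots well above background made up 61.3% to 70.4% of DOX+ arrays, against 55.6% to 64.8% of DOX- arrays. Relative to 4 bright spike-in probes the percentile itself was higher on the DOX+ array by 1.13 ± 0.44 (SD, n = 3 pairs), and by 0.35 between the technical repeats. Changes are therefore relative to that shift. The brighter Runx1 probe averaged -5.60 ± 0.60 in DOX+ and -4.57 ± 0.25 in DOX- cells (SD, n = 3 each, limma adjusted p 0.126), and the second did not clear the background on any replicate array. No source used here says if the inducible construct contains the probed sequence, so these probes do not check the labels. The endothelial genes Cdh5, Kdr and Pecam1 were well above background on all 6 arrays, which does not check the label of hemogenic endothelium. Over the 12 endothelial markers described further below, the median change was -1.46.

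Of the 28 tested chemokine system genes, 7 rose, 3 fell and 18 did not pass in DOX+ cells (limma, adjusted p under 0.05). The receptors Ccr7, Ccr2 and Ccr4 and the ligands Ccl9, Ccl6, Ccl3 and Ccl17 rose. The monocyte attractants Ccl2 and Ccl7 and the atypical receptor Ackr1 fell. Over all tested genes, 4.14% rose and 2.16% fell. Through DOX+ arrays alone, 6 genes had been kept (Ccr2, Ackr4, Ccl3, Ccr3, Ccr4 and Cxcr4), so that only a rise could readily pass among them, and through DOX- arrays alone 0. Among the 22 genes above background on all 6 arrays, 4 rose and 3 fell. The median change was 0.06 over the 28 genes and 0.09 over all genes tested. The replicate groups of all 10 genes that passed did not overlap, so their 3 replicate pairs share a direction by construction. The technical repeats differed in that direction too, but the labels do not say whose RNA those arrays hold. Of the 10 genes, 9 changed at least 2-fold. Shares of all tested genes were not counted for these features. With DOX+ replicate 2 or DOX- replicate 2 left out, 4 rose and 1 fell in each fit. Normexp background correction left 4 that rose and no filter on dim probes 5, and spike-in scaling left 0 that fell. Replicate groups did not overlap for 16 genes. For 10 of these DOX+ was higher, against a background of 19.6% of all genes, and for 6 it was lower, against 8.71%.

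**Figure D1:**
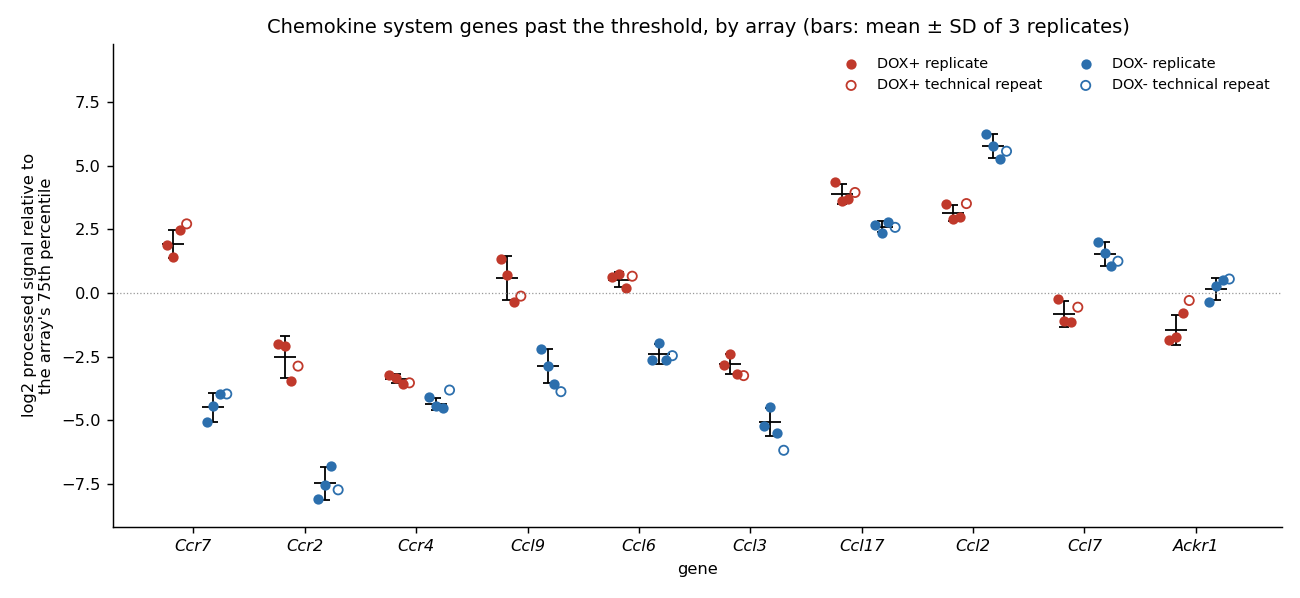
Log2 processed signal relative to the array's 75th percentile (vertical axis) of the 10 chemokine system genes that passed the test, with DOX+ left of DOX- for each gene. Filled circles are replicates, open circles technical repeats, and bars the mean ± SD of 3 replicates. The 3 DOX+ replicates of Ccr7 sit between 1.40 and 2.47, far above its DOX- replicates, while those of Ccl2 sit below theirs.

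Among the receptors, 8 of the 17 on the array were tested, and 3 rose in limma, against 4.14% of all genes tested. Through DOX+ arrays alone 4 of the 8 had been kept (Ccr2, Ccr3, Ccr4 and Cxcr4), and of the other 4, above background on all 6 arrays, Ccr7 rose. Ccr7, the receptor that guides dendritic cells and lymphocytes to lymph nodes, read 1.90, 1.40 and 2.47 in DOX+ cells, against -5.09, -4.44 and -3.96 in DOX- cells. The groups were far apart, and the technical repeats read 2.72 in DOX+ and -3.97 in DOX-. The change was 6.42 (SE 0.37, limma adjusted p 0.000853), an 85.7-fold difference in processed signal. With normexp background correction, which shrinks dim values, it was 4.41 and still passed. Its ligand Ccl19 averaged -2.74 ± 0.04 in DOX+ and -2.53 ± 0.14 in DOX- cells and did not pass (adjusted p 0.424).

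Ccr2, the monocyte receptor for Ccl2 and Ccl7, read -2.00, -2.07 and -3.45 in DOX+ cells, against -8.09, -7.57 and -6.80 in DOX- cells. It was well above background on all 3 DOX+ arrays and on 0 of 3 DOX- arrays, and the groups did not overlap. The DOX- level was thus not resolved from background. The lowest signals that passed for above background on those arrays served as a reference. A gene not above background can read higher, so this reference is no strict limit. Against that reference the DOX+ mean of Ccr2 was 7.44-fold higher in processed signal. The limma adjusted p, from the signals as read, was 0.00349. The means of Ccr2 were -2.51 in DOX+ and -7.49 in DOX- cells. With normexp the log2 change was 1.16, a smaller fold than that against the reference, and did not pass (adjusted p 0.085).

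Ccr4, the receptor for Ccl17, read -3.21, -3.34 and -3.57 in DOX+ cells and -4.09, -4.46 and -4.53 in DOX- cells. The groups lay close to each other without overlap, and 2 of 3 DOX- arrays were above background. The technical repeats read -3.53 in DOX+ and -3.82 in DOX-, only 0.28 apart, with the DOX- repeat above every DOX- replicate. The change of Ccr4 over the replicates, 0.99 (SE 0.18, adjusted p 0.0276), was 0.11 with normexp (adjusted p 0.679). It missed the threshold with spike-in scaling (adjusted p 0.0600) and without the filter on dim probes (0.0653), and with any 1 array left out only the fit without DOX- replicate 1 passed. Adjusted p was then between 0.0259 and 0.124.

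The other 5 tested receptors did not pass. Cxcr4, the receptor for Cxcl12, read -5.01, -4.60 and -3.92 in DOX+ cells and -6.71, -7.48 and -3.66 in DOX- cells. DOX- replicate 3 stood with the DOX+ arrays, so the groups overlapped, and only 1 DOX- array was above background. The change was 1.44 (SE 0.95, adjusted p 0.413), was -0.18 with normexp, and passed without DOX- replicate 3 at 2.58 (adjusted p 0.0276) and with spike-in scaling at 2.56 (0.0107). Cxcr6, the receptor for the membrane-bound ligand Cxcl16, averaged -2.45 ± 0.15 in DOX+ and -1.80 ± 0.53 in DOX- cells (adjusted p 0.236). Cxcr3, the receptor for interferon-induced ligands, averaged -3.86 ± 1.30 in DOX+ and -3.60 ± 0.52 in DOX- cells (adjusted p 0.836). Ccr8 and the eosinophil receptor Ccr3 differed by 0.10 and 0.17, less than their SEs of 0.18 each. The monocyte receptor Ccr1, the neutrophil receptors Cxcr1 and Cxcr2, and Cxcr5 and Xcr1 did not clear the background on any of the 6 replicate arrays. Ccr6, Ccr9 and Ccr10 were above it on 1 or 2 arrays.

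**Figure D2:**
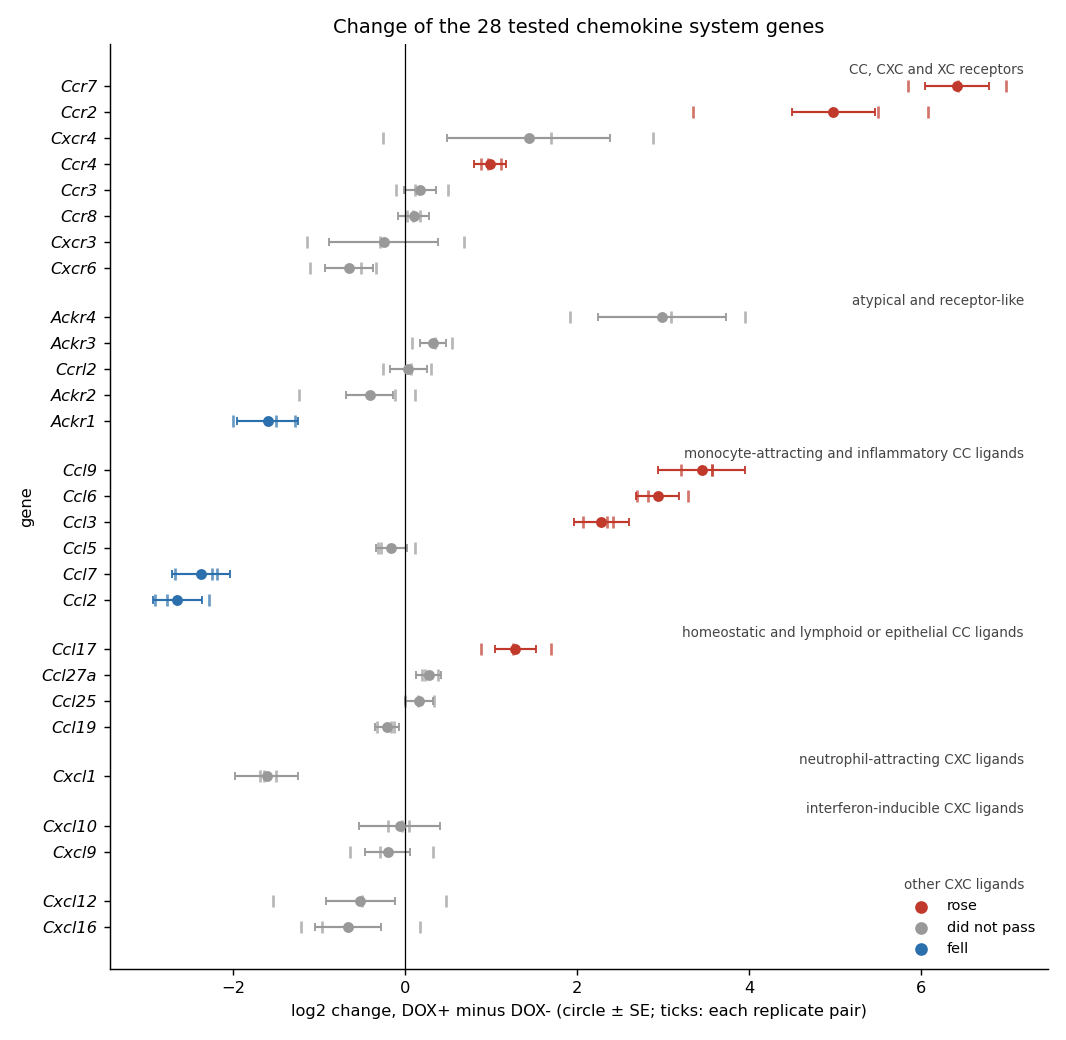
Log2 change, DOX+ minus DOX- (horizontal axis), of the 28 tested genes grouped by role, with circles and bars for the fitted change ± SE and ticks for the 3 replicate pairs. Red genes rose, blue genes fell and grey ones did not pass. Ccr7 at 6.42 and Ccl2 at -2.65 mark the ends, and the pairs of Cxcr4 and Cxcl12 fall on both sides of 0.

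Among the CC ligands, 10 of 20 were tested, 4 rose and 2 fell, against 4.14% and 2.16% of all genes tested. Ccl2, which draws monocytes through Ccr2, read 3.49, 2.90 and 3.01 in DOX+ cells, against 6.26, 5.80 and 5.29 in DOX- cells. Ccl7, which shares that receptor, read -0.24, -1.12 and -1.13 in DOX+ cells, against 2.02, 1.57 and 1.06 in DOX- cells. For both genes every DOX+ array lay below every DOX- array, the technical repeats included. Ccl2 fell by 2.65 on the log2 scale (SE 0.29, adjusted p 0.0048), which is 6.29-fold lower in DOX+ cells. Ccl7 fell by 2.38 (SE 0.34, adjusted p 0.0118), which is 5.20-fold lower. Scaled to the spike-ins, the changes were -1.53 for Ccl2 and -1.25 for Ccl7 and neither passed (adjusted p 0.172 and 0.176). The call for Ccl7 was also lost without DOX+ replicate 2 (adjusted p 0.0513) and without DOX- replicate 2 (0.0528).

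Ccl9, Ccl6 and Ccl3 are neighbours on chromosome 11 and attract monocytes and other myeloid cells, with Ccr1 as a receptor they share. Ccl9 read 1.36, 0.72 and -0.35 in DOX+ cells, against -2.21, -2.86 and -3.57 in DOX- cells. Ccl6 read 0.64, 0.73 and 0.19 in DOX+ cells, against -2.65, -1.97 and -2.63 in DOX- cells. The groups were separated in both genes by more than the range within either group. Ccl9 rose by 3.45 (SE 0.51, adjusted p 0.0127), or 10.9-fold, and Ccl6 by 2.94 (SE 0.25, adjusted p 0.00262), or 7.66-fold. Both also passed with normexp, at 2.51 and 2.22, while Ccl9 missed the threshold without DOX+ replicate 2 (adjusted p 0.0557) and without DOX- replicate 2 (0.0549). Ccl3 read -2.82, -2.41 and -3.17 in DOX+ cells, against -5.24, -4.48 and -5.52 in DOX- cells. It was well above background on 2 of 3 DOX- arrays, and its rise of 2.28 (SE 0.32, adjusted p 0.0114) was 0.49 with normexp and did not pass (adjusted p 0.264). Their receptor Ccr1, as given above, did not clear the background on any replicate array.

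The upstream windows of these 3 neighbours are shown because they rose together while Ccl5 beside them did not pass. Each runs 250 bases before to 50 bases after the annotated start, on the minus strand of chromosome 11 in GRCm38.p6, from RefSeq. The positions are chr11:83578587-83578886 for Ccl9, chr11:83593038-83593337 for Ccl6 and chr11:83649329-83649628 for Ccl3. Capitals mark TGTGGT on either strand, the core letters that RUNX factors bind.
Ccl9: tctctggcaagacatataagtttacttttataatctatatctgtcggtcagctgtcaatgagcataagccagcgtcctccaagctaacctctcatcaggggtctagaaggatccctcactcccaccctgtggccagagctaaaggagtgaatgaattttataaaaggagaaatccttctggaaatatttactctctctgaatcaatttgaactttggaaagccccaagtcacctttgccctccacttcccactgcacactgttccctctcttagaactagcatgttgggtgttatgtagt
Ccl6: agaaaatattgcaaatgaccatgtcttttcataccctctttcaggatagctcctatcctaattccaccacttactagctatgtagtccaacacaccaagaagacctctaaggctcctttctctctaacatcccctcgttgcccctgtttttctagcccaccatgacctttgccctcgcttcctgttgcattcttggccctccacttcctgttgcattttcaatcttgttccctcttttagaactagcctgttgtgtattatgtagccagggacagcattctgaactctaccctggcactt
Ccl3: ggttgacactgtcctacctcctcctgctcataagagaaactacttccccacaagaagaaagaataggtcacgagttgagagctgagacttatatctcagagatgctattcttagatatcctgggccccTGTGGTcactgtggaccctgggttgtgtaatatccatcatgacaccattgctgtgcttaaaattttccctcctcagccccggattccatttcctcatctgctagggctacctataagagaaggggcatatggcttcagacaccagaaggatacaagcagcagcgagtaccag
The letters TGTGGT occurred once, in the Ccl3 window at position -122, counted back from the annotated start. They were in 16.8% of all 32851 windows of that length and in 10 of the 46 windows of 40 chemokine system genes (21.7%). Of the 10 genes that passed, 7 had a window (Ackr1, Ccl17, Ccl3, Ccl6, Ccl9, Ccr2 and Ccr4), and the Ccl3 window alone held the match. Other searches, also on both strands, found GAGGAA in the windows of Ccl3 and Ccl17 (28.3% of all windows), TGANTCA in those of Ccl9 and Ccr4 (7.81%) and TATAAA in that of Ccl9 (13.6%). In the Ccl9 window TATAAA also matched on the other strand, both in letters that overlap and in a separate stretch nearer the start of the window. No match of one motif overlapped that of another in the 3 printed windows. These matches describe letters and not binding.

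Gene order on chromosome 11 (GRCm38.p6) placed the CC ligands there that fell and those that rose in separate runs. Ccr7, which rose, lies on chromosome 11 too but in neither run. Ccl2 and Ccl7 fell, and the genes that follow them, Ccl11, Ccl12, Ccl8 and Ccl1, were not tested. Ccl11 did not clear the background on any replicate array, while Ccl12 was above it on 2 of 3 arrays in each group, Ccl8 on 1 of 3 in each group and Ccl1 on 1 DOX+ array. After 25 further protein-coding genes came Ccl5, Ccl9, Ccl6, Ccl3 and Ccl4. Ccl5, a T cell attractant, averaged -4.45 ± 0.28 in DOX+ and -4.28 ± 0.07 in DOX- cells (adjusted p 0.618), and Ccl4 was above background on 2 of 3 arrays in each group and was not tested. On chromosome 9 the run held Ccr9, Fyco1, Cxcr6, Xcr1, Ccr1, Ccr1l1, Ccr3 and Ccr2. Of the 4 tested there Ccr2 rose, while Fyco1, which is no chemokine gene (0.46), Cxcr6 (-0.65) and Ccr3 (0.17) did not pass.

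**Figure D3:**
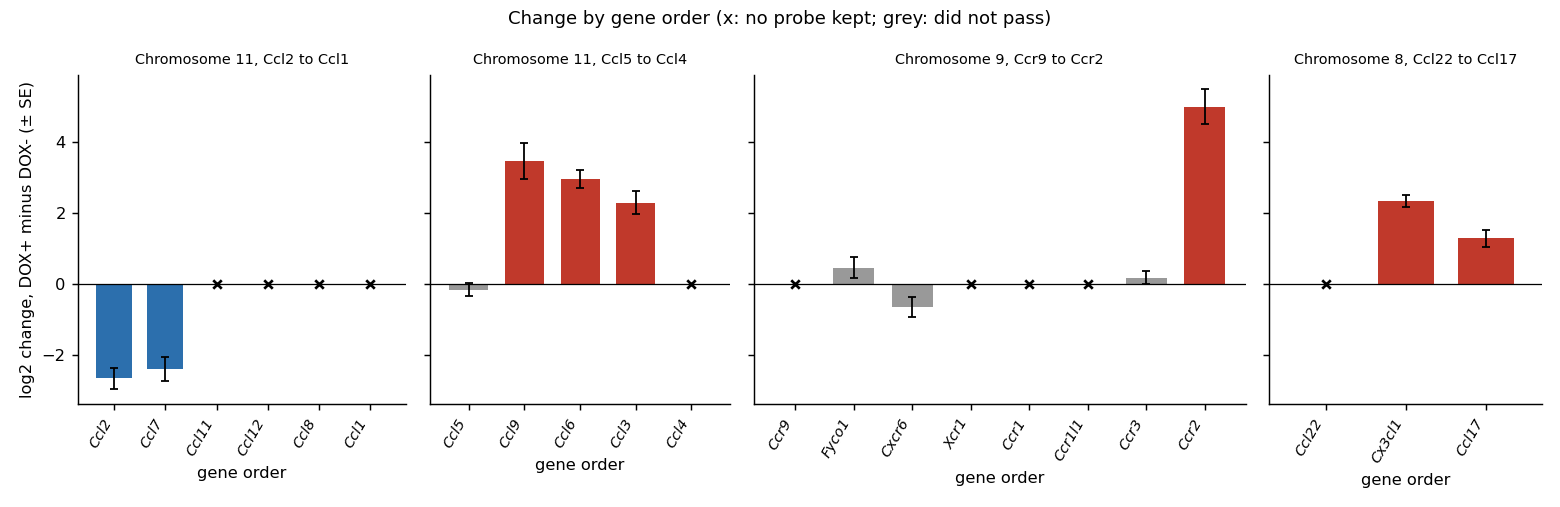
Log2 change ± SE (vertical axis) of genes in their order along chromosomes 11, 9 and 8, with crosses for genes without a kept probe and grey bars for genes that did not pass. Ccl2 and Ccl7 lie below 0 and Ccl9, Ccl6 and Ccl3 above it, and Ccr2 is the tall bar of the chromosome 9 run.

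Ccl17, a ligand of Ccr4 made by dendritic cells, was bright in both groups, at 4.35, 3.63 and 3.69 in DOX+ cells and 2.66, 2.38 and 2.80 in DOX- cells. All DOX+ arrays exceeded all DOX- arrays, and the technical repeats read 3.96 in DOX+ and 2.58 in DOX-. The rise was 1.28 (SE 0.24, adjusted p 0.0285), or 2.42-fold, and was 1.32 with normexp. The call was lost without the filter on dim probes (adjusted p 0.0632). It held with DOX+ replicate 1 left out (adjusted p 0.0491) but with none of the other 5 arrays left out, where the highest adjusted p was 0.118. On chromosome 8 Ccl17 lies in a run with Cx3cl1 and Ccl22, a second ligand of Ccr4 that did not clear the background on any replicate array. Cx3cl1, the membrane-anchored fractalkine, averaged 5.84 ± 0.14 in DOX+ and 3.51 ± 0.24 in DOX- cells and rose by 2.33 (SE 0.18, adjusted p 0.00198). Ccl25, the thymus and gut ligand of Ccr9, averaged 0.96 ± 0.22 in DOX+ and 0.80 ± 0.10 in DOX- cells (adjusted p 0.594). Ccl27a, the skin ligand of Ccr10, averaged -0.33 ± 0.14 in DOX+ and -0.60 ± 0.05 in DOX- cells (adjusted p 0.321). Ccl20, Ccl24, Ccl26 and Ccl28 did not clear the background on any replicate array.

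Among the CXC ligands, 5 of 12 were tested and 0 passed in limma, while Cxcl1 alone was under 0.05 unadjusted. Cxcl12, the niche ligand of Cxcr4 and Ackr3, read 3.77, 3.54 and 3.42 in DOX+ cells and 3.30, 4.04 and 4.96 in DOX- cells. The 3 DOX+ arrays stood close together while the DOX- arrays were spread on both sides of them. Its change was -0.52 (SE 0.40, adjusted p 0.476), and the pairs differed by 0.47, -0.50 and -1.54. Cxcl1, a neutrophil attractant, read -0.09, -0.90 and -1.10 in DOX+ cells and 1.55, 0.60 and 0.58 in DOX- cells. Every DOX+ array lay below every DOX- array, and the change of -1.61 (SE 0.37) had an adjusted p of 0.0535. With the replicate number as a block it passed (adjusted p 0.00255), as it did without DOX+ replicate 1 (0.0440). Cxcl16 averaged -3.42 ± 0.57 in DOX+ and -2.75 ± 0.58 in DOX- cells (adjusted p 0.358). The interferon-induced ligands Cxcl10 and Cxcl9 differed by -0.07 (SE 0.47) and -0.20 (SE 0.26), with adjusted p-values of 0.944 and 0.67. The neutrophil attractants Cxcl2, Cxcl3 and Cxcl15 and the ligands Cxcl13 and Cxcl17 did not clear the background on any replicate array. Cxcl5 was above it on 2 DOX+ arrays and 1 DOX- array, and Cxcl14 on 1 DOX+ array. Near Cxcl1 on chromosome 5, the platelet chemokine Pf4 averaged 2.73 ± 0.59 in DOX+ and 0.19 ± 0.77 in DOX- cells and rose by 2.54 (SE 0.45, adjusted p 0.0245).

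All 5 atypical or receptor-like genes were tested, and 1 fell, against 2.16% of all genes tested. Ackr1, which binds many inflammatory ligands on venular endothelium and red cells, read -1.85, -1.73 and -0.77 in DOX+ cells, against -0.34, 0.28 and 0.52 in DOX- cells. The gap between the groups was smaller than the range within either. Its fall of 1.60 on the log2 scale (SE 0.35, adjusted p 0.049), 3.03-fold, was the call nearest to the threshold. It passed under 3 of 8 alternatives, and adjusted p was 0.548 with spike-in scaling, 0.0559 with median centring, 0.0598 with quantile normalization, 0.0947 without the filter on dim probes and 0.0501 when all 6 arrays had to be above background. It reached 0.17 with 1 array left out, where only the fits without DOX+ replicate 3 and without DOX- replicate 1 passed. Ackr4, which removes Ccl19 and Ccl25, read -6.03, -3.46 and -3.47 in DOX+ cells and -7.94, -7.41 and -6.56 in DOX- cells. DOX+ replicate 1 stood nearer to the DOX- arrays than to the other DOX+ ones, and no DOX- replicate array was above background. Against the lowest signals that passed for above background on the DOX- arrays, the DOX+ mean of Ackr4 was 2.12-fold higher in processed signal. Ackr4 averaged -4.32 in DOX+ and -7.30 in DOX- cells and did not pass (adjusted p 0.0708). It passed with the replicate number as a block (adjusted p 0.00972) and without DOX+ replicate 1 (0.0117), with scaling to the spike-ins (1.11e-06) and with arrays centred on their medians (0.0371), and the change with normexp was 0.05.

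Ackr3, a scavenger of Cxcl12, read 1.81, 1.87 and 1.84 in DOX+ cells and 1.73, 1.33 and 1.49 in DOX- cells. The DOX+ arrays lay just above the DOX- ones, and the change of 0.32 (SE 0.15) did not pass (adjusted p 0.283). Ackr2, a scavenger of inflammatory CC ligands, averaged -4.53 ± 0.23 in DOX+ and -4.12 ± 0.50 in DOX- cells (adjusted p 0.416). Ccrl2, which binds chemerin, averaged -3.25 ± 0.10 in DOX+ and -3.28 ± 0.38 in DOX- cells (adjusted p 0.942). With the replicate number as a block, 8 chemokine system genes rose and 4 fell, Ackr4 and Cxcl1 being the added ones, against 9.37% and 6.81% of all genes in that fit.

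**Figure D4:**
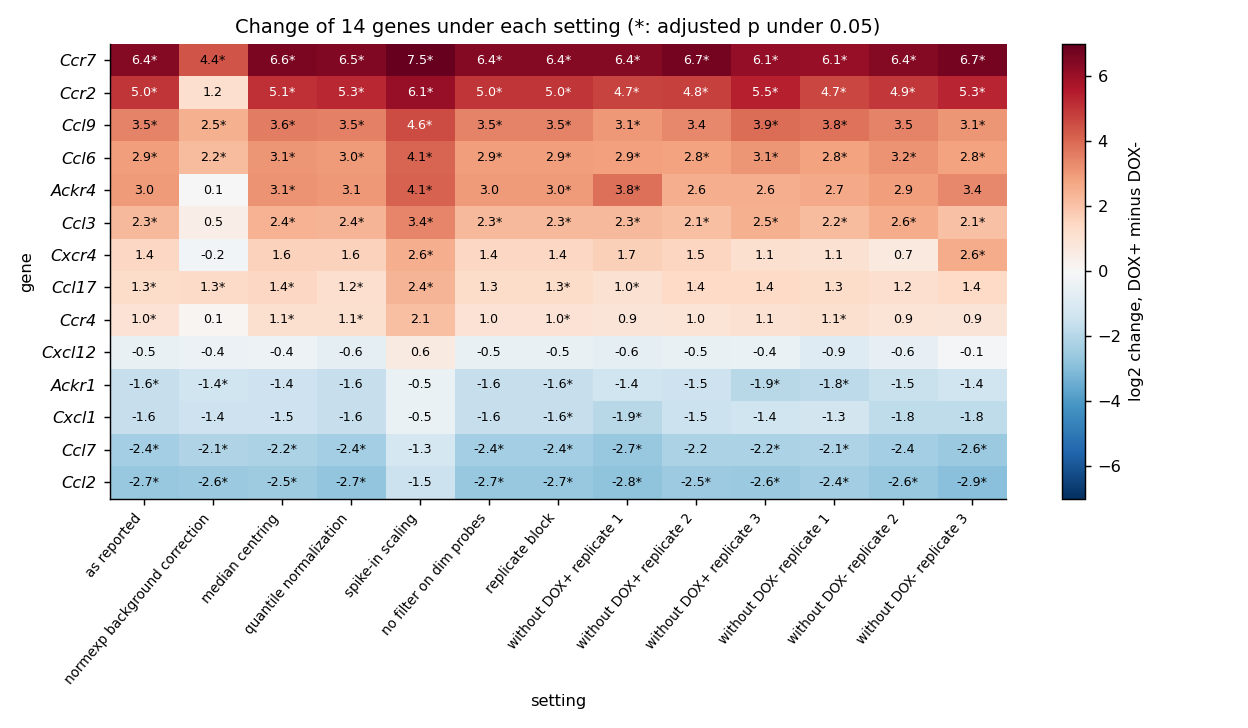
Log2 change, DOX+ minus DOX- (colour and number), of 14 chemokine system genes (rows) under each processing setting (columns), with a star where the adjusted p was under 0.05. The Ccr7 and Ccl6 rows carry a star in each column. The normexp column has none for Ccr2, Ccl3 and Ccr4, and the spike-in column has none for Ccr4, Ccl2, Ccl7 and Ackr1.

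**Figure D5:**
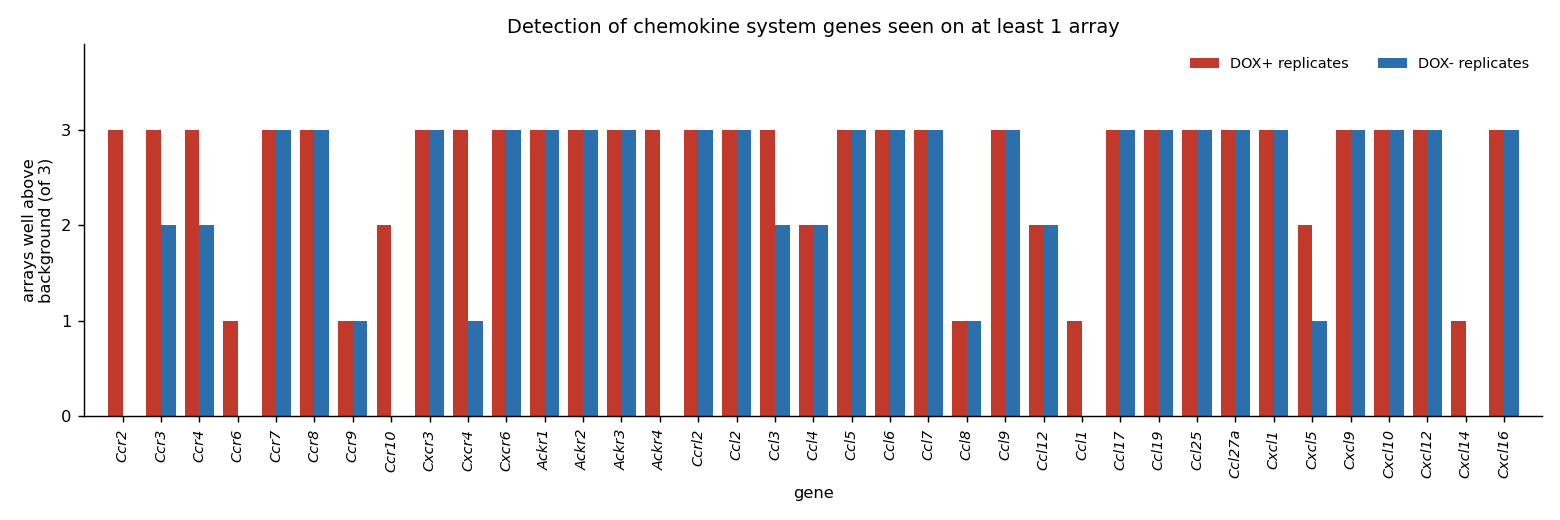
Number of replicate arrays per group (vertical axis, of 3) on which the best probe of a gene was well above background, for genes so detected on at least 1 of the 6 arrays, DOX+ in red left of DOX- in blue. Ccr2 and Ackr4 have bars at 3 for DOX+ and none for DOX-.

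Chemokine family genes outside the symbol rule and the signalling chain behind the receptors were listed separately. Of 13 tested family genes, 3 rose and 0 fell in limma, against 4.14% and 2.16% of all genes, with a median change of 0.05. At an unadjusted limma p under 0.05, 5 were higher and 2 lower, and the share of all genes at that threshold was not counted. With the replicate number as a block 3 rose and 3 fell, against 9.37% and 6.81% of all genes. Beside Cx3cl1 and Pf4 it was Cd74, the receptor chain for Mif, that rose, by 3.28 (SE 0.49, adjusted p 0.0136), at -1.73 ± 1.00 in DOX+ and -5.01 ± 0.36 in DOX- cells, and it did not pass with normexp (1.44, adjusted p 0.0803). The brightest 2 that did not pass were Mif, at 7.93 ± 0.20 in DOX+ and 7.89 ± 0.16 in DOX- cells, and Cmtm7, at 4.19 ± 0.17 in DOX+ and 4.53 ± 0.14 in DOX- cells. Of 62 tested signalling genes, 7 rose and 2 fell, against 4.14% and 2.16% of all genes, with a median change of -0.02. Some of them were kept through 1 group alone. Where all 6 arrays had to be above background, 59 were tested, 5 rose and 2 fell. The kinase Ptk2b rose by 2.14 (SE 0.20, adjusted p 0.00325) and the actin regulator Was by 1.86 (SE 0.21, adjusted p 0.0057). The G protein subunit Gnao1 rose by 2.71 and the exchange factor Vav3 by 1.02, with adjusted p-values of 0.00861 and 0.0109. The kinase Prkcb, above background on no DOX- replicate array, rose too (adjusted p 0.0073), at -3.14 in DOX+ and -6.27 in DOX- cells. Its DOX+ mean was 4.81-fold above the lowest signals that passed for above background on the DOX- arrays. The kinase Lyn rose by 0.59 (adjusted p 0.0479). The inhibitory G protein subunit Gnai1 fell by 1.39 (adjusted p 0.0258) and the receptor kinase Grk5 by 0.99 (adjusted p 0.0358), and neither passed with median centring or spike-in scaling. The brightest subunits did not pass, with Gnb2 at 6.92 ± 0.10 in DOX+ and 7.07 ± 0.34 in DOX- cells and Gnai2 at 6.70 ± 0.11 in DOX+ and 6.73 ± 0.47 in DOX- cells. With the block, 11 signalling genes rose and 4 fell, against 9.37% and 6.81% of all genes.

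Of the markers of cell types that the cultures could hold, some rose or fell and most did not pass. The part of such cells in the results was not tested. The background for each marker list is that 4.14% of all tested genes rose and 2.16% fell. With the replicate number as a block these shares were 9.37% and 6.81%. Summed levels below are sums of linear signal in units of the array's 75th percentile. Of 10 blood progenitor markers 5 rose (Itgb3, Spn, Myb, Ikzf1 and Gfi1), and their sum was 58.2 to 64.9 on DOX+ arrays, against 5.19 to 8.40 on DOX- arrays. Kit and Itga2b, the brightest that did not pass, differed by 0.57 and 0.63. Of 5 tested mast cell and basophil markers the proteases Mcpt4 and Mcpt8 rose, with sums of 7.04 to 8.97 in DOX+ and 2.78 to 3.40 in DOX- cells, while Gata2 and Tpsb2 did not pass. With the block 6 blood progenitor and 3 mast cell markers rose, Gata2 included.

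Markers of cells that use Ccr7, Ccr2 or Ccl17 were mixed. Of 8 tested dendritic cell markers Cd86 alone rose (adjusted p 0.00419, with -2.96 in DOX+ and -7.69 in DOX- cells). Its DOX+ mean was 5.42-fold above the lowest signals that passed for above background on the DOX- arrays. The sums were 160.7 to 178.4 in DOX+ and 178.5 to 227.7 in DOX- cells, most of it from Siglech, which did not pass, as Fscn1 did not, and 2 markers rose and 2 fell with the block. Of 9 tested macrophage and granulocyte markers the protease Ctsg rose, by 1.83, and the growth factor receptor Csf1r fell, by 1.33 (adjusted p 0.0234 and 0.0258). Their sums were 35.0 to 53.6 in DOX+ and 52.6 to 60.6 in DOX- cells, and Itgam and Elane, the brightest others, did not pass, while 3 rose and 3 fell with the block. Of 6 tested lymphoid markers 0 passed in limma and 2 were under 0.05 unadjusted, with Cd3e and Cd4 the brightest, and sums were 9.76 to 11.3 in DOX+ and 8.46 to 16.2 in DOX- cells.

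Of 8 tested platelet markers Pf4, counted above, alone rose, with sums of 8.51 to 18.5 in DOX+ and 3.59 to 7.62 in DOX- cells. Of the others in that list, Gp1ba and Itga2b did not pass, while the blocked fit had 4 that rose, Gp1ba included, and 1 that fell. Of 12 endothelial markers Tek fell, by 1.13 (adjusted p 0.0414), with sums of 87.9 to 240.8 in DOX+ and 172.7 to 481.3 in DOX- cells, and 7 fell with the block. Egfl7 and Kdr, the brightest of them, did not pass without it. Of 10 mesenchymal markers Thy1 fell, with sums of 562.9 to 664.0 in DOX+ and 759.2 to 883.7 in DOX- cells, and the brightest, Acta2 and Tagln, did not pass. With the block 1 rose and 3 fell, Acta2 among them (adjusted p 0.0267). In bulk RNA of this kind, fewer cells of a type and less RNA per cell cannot be told apart.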

How the data were processed

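Total RNA was labelled with Cy3 and hybridised to 1-colour Agilent arrays, 1 sample each, all 8 on 1 slide with 1 scan time per the file headers. The authors deposited the scanner output, with processed and median signal as spot intensity and flags of 0 or 1 (extraction software 10.7.3.1 per the file headers, 10.7.1.1 per the submitters' processing notes, which also name limma). A series table of log2 values, deposited too, served as an alternative only, and no source used here gives its normalization.

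Control spots and outlier spots were left out, 55681 probes remained, and log2 processed signal minus the array's 75th percentile was averaged per probe. RefSeq accessions named 26582 probes and left 29099 unnamed. Each gene took its brightest kept probe. The test was limma's moderated one (lmFit, eBayes; version 3.58.1 in R 4.3.3), two-sided. P-values were adjusted by Benjamini-Hochberg over 14504 genes, and the code was tested on simulated data. For a gene above background on no array of a group, the fold is given against a reference there. That bound is the lowest processed signal that passed for above background, so the fold with normexp can be smaller. Same-numbered arrays deviated together (correlations 0.65, 0.45 and 0.43 over genes), and the pairs given here join arrays of the same number in their titles. The labels state no block, and what such arrays share was not tested. The reported test is unpaired and leaves that shared spread in its error, so the blocked fit is given as an alternative. P-values set each change against the spread between these samples, moderated over all tested genes, and 3 arrays a group limit the precision.

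Alternatives were normexp (offset 50, on the median signal, as the mean signal is not among the files' columns), median, quantile and spike-in scaling, 2 filters, the mean of probes, the replicate block, a 2-fold minimum, the authors' table and leaving out each array. A slide block could not be fitted with 1 slide. The members and lists were chosen with earlier results of these data known. Of the genes counted, 2 are not reported by name here. Every tested member is named, and of other lists up to 6 genes past the threshold and the 2 brightest of the rest. Lyn, Grk5 and the neighbours in gene order were added after their values were seen.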

Additional observations from a re-analysis of the deposited data

How the results depend on the processing

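Of the 28 tested genes, 325 comparisons with an alternative kept direction and side of the threshold, 31 lost a call, 8 gained one and 22 changed sign. Ccr7 and Ccl6 passed under all 8 alternatives and with each of the 6 arrays left out. The count of genes that rose (7) was 4 with normexp, 5 without a filter on dim probes, where Ccl17 and Ccr4 were lost, and 4 when all 6 arrays had to be above background, which leaves out 6 genes by construction. The count that fell (3) was 0 with spike-in scaling. With 1 array left out, 4 to 7 genes rose and 1 to 4 fell. With the replicate number as a block 8 rose and 4 fell, and signalling genes that rose were 11 in place of 7 and those that fell 4 in place of 2. Signalling genes that fell were 0 with median centring, with spike-in scaling and without a filter on dim probes. With 1 array left out, 5 to 6 signalling genes rose and 0 to 1 fell. Among the 8 columns of the authors' table, 6 tracked an array other than the one they are named for. Columns taken by name gave 0 chemokine system genes and 0 signalling genes in either direction, and columns taken by the array tracked gave 7 and 3 chemokine system genes. The cause of these shifts was not tested.

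The genes that changed sign had not passed. With spike-in scaling the change was 0.71 for Ackr2, 0.92 for Ccl19, 0.96 for Ccl5, 1.06 for Cxcl10, 0.61 for Cxcl12, 0.46 for Cxcl16, 0.92 for Cxcl9, 0.87 for Cxcr3 and 0.47 for Cxcr6. With normexp it was -0.29 for Ccr3, -0.19 for Ccr8, -0.22 for Ccrl2 and -0.18 for Cxcr4, and with median centring 0.089 for Cxcl10. With 1 array left out it ranged between -0.015 and 0.21 for Ccr8, between -0.15 and 0.22 for Ccrl2, between -0.49 and 0.34 for Cxcl10, between -0.49 and 0.0020 for Cxcl9 and between -0.77 and 0.48 for Cxcr3. Dim signal limits Ccr2, Ccl3, Ccr3, Ccr4, Ackr4 and Cxcr4, each above background on fewer than 3 DOX- arrays. No slide block was run, since all arrays share 1 slide.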

Other observations

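Several probes measured 8 of the chemokine system genes, and the kept probes given here beside the reported ones entered only the alternative that averages kept probes. A second kept probe of Cxcr6 differed by -0.84 between DOX+ and DOX- means, against -0.65 for the probe reported. For Cxcl12 the dimmer probe differed by -0.34, against -0.52. Both further probes of Ccl27a lay above 0, at 0.18 and 0.24, as did that of Ccl25, at 0.30. The kept probes of Ccl19 disagreed in sign, with a second probe at 0.03 and the reported one at -0.21. A further probe of Ccl19 and the other probes of Ackr2, Ccr8 and Cxcl9 were above background on no array and were not kept. In the technical repeats, Cxcl9 read -7.68 in DOX+ and -5.24 in DOX-, outside the range of the DOX+ replicates, and Ackr2 read -5.94 in DOX+ and -4.26 in DOX-. Cxcr4 read -4.11 in the DOX+ repeat and -3.38 in the DOX- one, so that its difference there was -0.74, against 1.44 over the replicates.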
